A study of Mus musculus with 8 samples.

Results

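Transcripts of 10 enzymes and regulators of glucose output and glycogen storage were followed in cultured hepatocytes isolated from mouse liver. The genes were G6pc, Slc37a4, Pck1, Pcx, Fbp1 and Fbp2 of gluconeogenesis, and Gys2, Ppp1r3b, Ppp1r3c and Pygl of glycogen metabolism. They were chosen by name, as probe sets whose platform annotation gives a listed symbol, and all 10 were found, each with 1 probe set, among the 19937 genes tested. The list was drawn up with earlier results of these data known, so its shares below are descriptive. RNA of 8 samples was measured on whole-transcript arrays, 2 samples in each of 4 groups of male BALB/c mice. The combined group was labelled HO1-/- and received a lentiviral short hairpin RNA (shRNA) against heme oxygenase 2 (HO2). The HO1 knockout group was labelled HO1-/- and received a scrambled shRNA. The HO2 knockdown group was HO1+/+ and received the HO2 shRNA. The control group was HO1+/+ and received the scrambled shRNA. Cells of all groups were placed in puromycin 24 h after transduction, were given 1 µM dexamethasone, a synthetic glucocorticoid, for 30 min after 3 days, and were harvested 28 h later, so the values describe a common time after a glucocorticoid pulse. Heme oxygenases 1 and 2 degrade heme and thereby release carbon monoxide, and the study's title concerns the place of carbon monoxide in the circadian clock. The HO1+/+ animals were littermates, and ages are not given. The labels name 1 hairpin against HO2, so what it does off target enters each comparison of a group that received it with one that did not. They call the replicates biological without saying whether they came from separate animals, so each p-value reflects only how these samples varied. Genotype cannot be told apart from the hepatocyte preparation it came with.

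Gluconeogenesis makes glucose from lactate, amino acids and glycerol, chiefly in the fasting liver. Pyruvate carboxylase (Pcx) and phosphoenolpyruvate carboxykinase (Pck1) bypass pyruvate kinase, fructose bisphosphatase (Fbp1 in liver, Fbp2 in muscle) bypasses phosphofructokinase, and glucose-6-phosphatase (catalytic subunit G6pc, transporter Slc37a4) releases free glucose from the endoplasmic reticulum. Glycogen synthase (Gys2 in liver) and glycogen phosphorylase (Pygl in liver) build and break down glycogen, and the scaffold proteins encoded by Ppp1r3b and Ppp1r3c bring protein phosphatase 1 to glycogen. Glucagon, acting through cAMP, and glucocorticoids raise transcription of Pck1 and G6pc, and insulin lowers it through the FOXO1 transcription factor.

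The deposited values are log2 signals, and array medians lay between 7.61 and 7.70. Pearson's r across genes was 0.997 to 0.999 for replicates and 0.975 to 0.989 for pairs of arrays from different groups. Hmox2 was at 9.26 and 9.32 in combined, 11.59 and 11.60 in HO1 knockout, 8.32 and 8.38 in HO2 knockdown, and 11.41 and 11.57 in control. Hmox1 was higher, not lower, in arrays labelled HO1-/-, at 12.40 and 12.47 in combined and 11.98 and 11.97 in HO1 knockout, against 11.53 and 11.57 in HO2 knockdown and 11.46 and 11.40 in control. The labels do not name the deleted exons, so this probe set does not check the genotype, and every direction for HO1 rests on the labels. The names HO1 knockout, combined and HO1-/- below are used as the labels give them. By their mean over the 8 arrays, none of the 12 hepatocyte markers measured lay in the dimmest 25% of genes (mean log2 signal under 6.77). Of these, Fabp1 was under that bound in HO1 knockout (mean 5.72) and control (5.76), and the mean of Cyp3a11 was under it in both groups, at 5.50 in control. Of the macrophage markers, Cd5l and Timd4 lay among these dim genes.

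Of the 10 genes, 7 differed between HO2 knockdown and control, against 33.2% of all genes tested (limma with Benjamini-Hochberg adjustment over all genes, adjusted p under 0.05, as for every count below). The genes that rose were G6pc, Pck1, Gys2, Slc37a4 and Pcx, 5 of 10 against 16.5% of all genes, and those that fell were Fbp2 and Fbp1, 2 of 10 against 16.7%. Their median log2 fold change was 0.33, against -0.07 over all genes, and the median size without sign was 0.79, against 0.16 over all genes. Between HO1 knockout and control 3 of the 10 differed, against 12.8% of all genes: Fbp2 and Fbp1 fell (2 of 10 against 7.2%) and Slc37a4 rose by a small amount (1 of 10 against 5.62%). That rise had an adjusted p of 0.049 and did not pass when any array other than HO2 knockdown replicate 2 was left out, where adjusted p ran from 0.0508 to 0.245. The median of the 10 was -0.07, against -0.04 over all genes.

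Between combined and control 7 of the 10 differed, against 29.9% of all genes, with G6pc, Pck1, Slc37a4 and Gys2 higher (4 of 10 against 11.6%) and Fbp2, Fbp1 and Pygl lower (3 of 10 against 18.3%). The median was 0.12, against -0.02 over all genes. The 3 comparisons with control share the control arrays. Between combined and HO1 knockout 6 of 10 differed, against 23.0% of all genes. The same 4 genes were higher, against 10.2% of all genes, and Fbp1 and Fbp2 were lower, against 12.8%. No filter on dim genes was applied, so all 10 entered each comparison.

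The arrays of 2 groups often do not overlap in this design, and the 10 genes can be read against that. In combined against control 8 of the 10 did not overlap, against 57.8% of all genes, in HO1 knockout against control 5 of 10, against 46.1%, and in HO2 knockdown against control 9 of 10, against 65.4%. In combined against HO1 knockout it was 9 of 10, against 59.8%, and in combined against HO2 knockdown 8 of 10, against 73.8%.

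**Figure D1:**
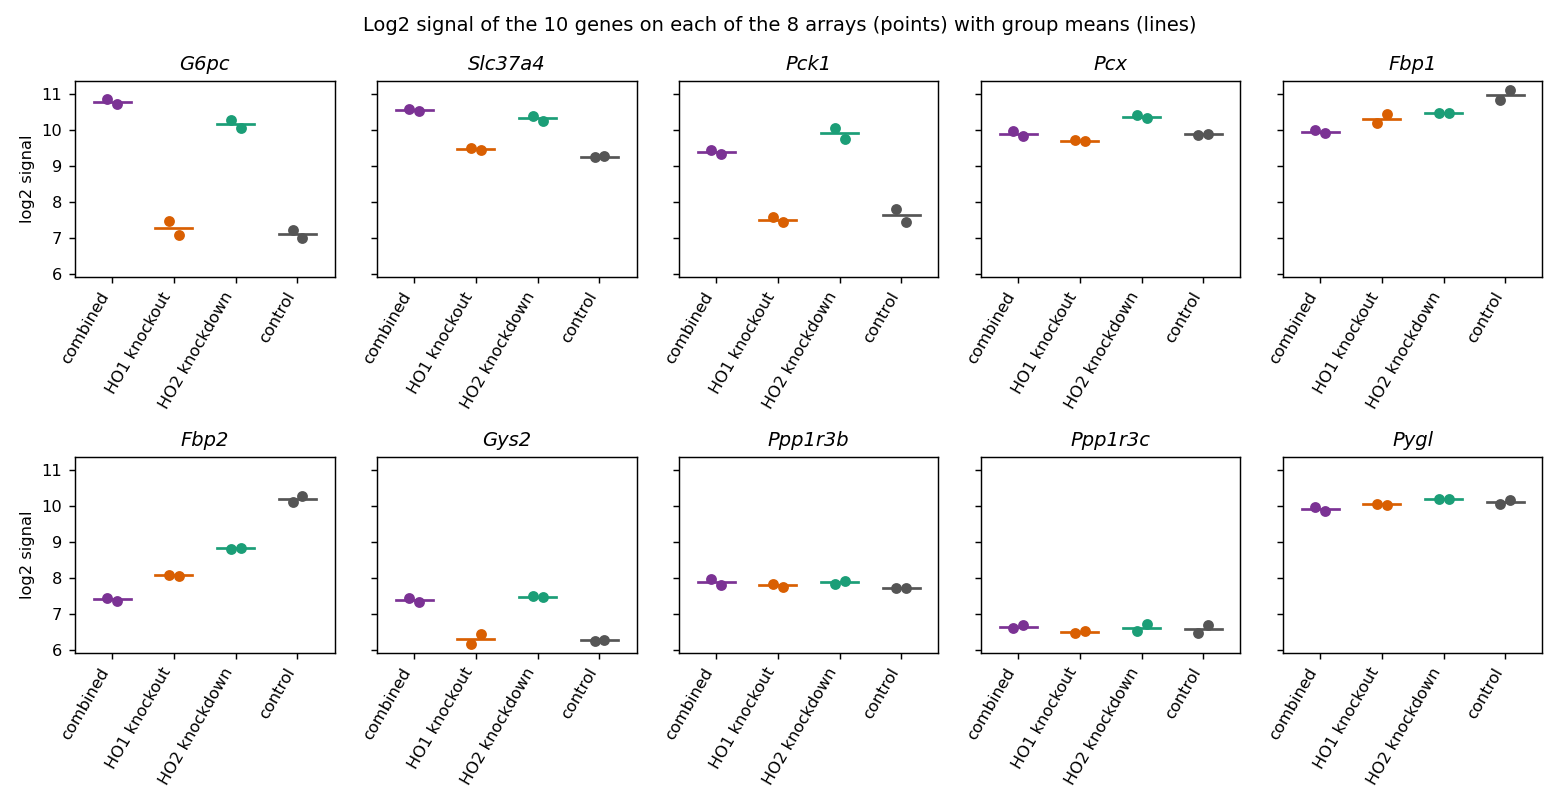
Log2 signal (vertical axis) of each of the 10 genes on the 8 arrays, with 1 panel a gene, points for arrays and lines for group means over the combined, HO1 knockout, HO2 knockdown and control groups. G6pc, Slc37a4, Pck1 and Gys2 are high in both groups with HO2 shRNA, Fbp2 takes a different level in each group and is highest in control, and Ppp1r3b, Ppp1r3c and Pygl each span at most 0.34.

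Markers of other cells and of differentiation moved along with these groups. Their counts stand against 16.5% of all genes higher and 16.7% lower in HO2 knockdown against control. These shares were 5.62% and 7.2% in HO1 knockout, and 11.6% and 18.3% in combined. The log2 of the summed hepatocyte marker signal lay between 16.39 and 16.45 in HO2 knockdown, against 15.38 to 15.42 in control, where 11 of 12 markers rose, 1 fell and the median was 1.63. The cell division markers fell in 7 of 7 (median -1.46), with a summed signal of 11.83 to 11.89 in HO2 knockdown, against 13.19 to 13.22 in control. Of the macrophage markers 0 of 14 rose and 1 fell in that comparison (summed 11.57 to 11.66 in HO2 knockdown, against 11.63 to 11.68 in control). In HO1 knockout, 10 of the 14 macrophage markers rose and 1 fell (median 2.54, summed 14.86 to 14.91, against 11.63 to 11.68 in control), and 9 of 12 hepatocyte markers rose and 1 fell (median 0.35, summed 15.70 to 15.71 in HO1 knockout). A change in the number of cells of a type and a change in RNA per cell cannot be told apart in these bulk samples. In combined against control, 10 of 14 macrophage markers rose and 0 fell (median 2.74, summed 14.94 to 15.02, against 11.63 to 11.68 in control), and 11 of 12 hepatocyte markers rose and 1 fell (median 1.41, summed 16.53 to 16.56, against 15.38 to 15.42 in control). Cell division markers fell in 7 of 7 (median -0.76), and 6 of 8 sinusoidal endothelium markers rose and 0 fell (median 0.52). The part of these shifts in the changes below was not tested.

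Both components of the glucose-6-phosphatase system rose with HO2 shRNA. G6pc (chromosome 11, 101367716 to 101377903, GRCm38.p6), whose product carries out the last step of glucose release, had log2 signals of 10.85 and 10.72 in combined, 7.48 and 7.08 in HO1 knockout, 10.27 and 10.05 in HO2 knockdown, and 7.23 and 7.01 in control. The arrays with HO2 shRNA lay above all others, while those of HO1 knockout and control overlapped. The gene was 8.23-fold higher in HO2 knockdown than in control (log2 fold change 3.04, SE 0.12, adjusted p = 2.69e-11) and 12.6-fold higher in combined (3.66, adjusted p = 1.09e-12). HO1 knockout and control differed by 0.16 (95% interval -0.10 to 0.41, adjusted p = 0.511). Within HO2 shRNA it was 0.62 higher in combined than in HO2 knockdown (adjusted p = 0.001).

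Slc37a4 (chromosome 9, 44396946 to 44402966), which carries glucose-6-phosphate into the endoplasmic reticulum, followed the same order with smaller steps. It was at 10.59 and 10.52 in combined, 9.50 and 9.45 in HO1 knockout, 10.39 and 10.25 in HO2 knockdown, and 9.24 and 9.29 in control, with no overlap between any of these groups. It was 2.09-fold higher in HO2 knockdown than in control (log2 fold change 1.06, SE 0.067, adjusted p = 5.38e-09) and 2.45-fold higher in combined than in control (1.29, adjusted p = 3.16e-10). Combined exceeded HO2 knockdown by 0.23 (adjusted p = 0.014), which did not pass without HO2 knockdown replicate 2 (0.16, adjusted p = 0.151) or without combined replicate 1 (0.20, adjusted p = 0.118).

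Pck1 (chromosome 2, 173153073 to 173159274), whose enzyme makes phosphoenolpyruvate from oxaloacetate, had its highest signal in HO2 knockdown. Its log2 signals were 9.44 and 9.32 in combined, 7.57 and 7.45 in HO1 knockout, 10.05 and 9.76 in HO2 knockdown, and 7.81 and 7.44 in control. HO2 knockdown exceeded control 4.86-fold (log2 fold change 2.28, SE 0.12, adjusted p = 6.83e-10), and combined exceeded control 3.38-fold (1.76, adjusted p = 9.73e-09). Unlike G6pc, Pck1 was lower in combined than in HO2 knockdown, by -0.53 (adjusted p = 0.0032), though not past the test without HO2 knockdown replicate 1 (-0.38, adjusted p = 0.0797). HO1 knockout and control overlapped and differed by -0.11 (95% interval -0.37 to 0.14).

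Pcx (chromosome 19, 4510472 to 4621752), whose enzyme forms oxaloacetate from pyruvate in mitochondria, moved less. It was at 9.97 and 9.82 in combined, 9.71 and 9.70 in HO1 knockout, 10.42 and 10.33 in HO2 knockdown, and 9.87 and 9.89 in control. HO2 knockdown alone passed the test against control, at 1.40-fold (log2 fold change 0.49, SE 0.067, adjusted p = 2.86e-05). Combined was -0.48 from HO2 knockdown (adjusted p = 6.05e-05) and 0.01 from control (95% interval -0.13 to 0.16). HO1 knockout was -0.18 from control (adjusted p = 0.107), with arrays that did not overlap.

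The promoters of the gluconeogenic genes are shown because G6pc and Pck1 had the largest rises among the 10 genes and Fbp2 and Fbp1 the largest falls against control. Each runs 5′ to 3′ from 250 bases before an annotated start site to 50 after it, taken from RefSeq on GRCm38.p6, and capitals mark matches to the motifs searched. They are G6pc at chr11:101367466-101367765 on the plus strand, Pck1 at chr2:173152823-173153122 on the plus strand, Fbp1 at chr13:62888233-62888532 on the minus strand and Fbp2 at chr13:62858351-62858650 on the minus strand. The start site of the Fbp1 window lies slightly inside the gene bounds given with its values.
G6pc: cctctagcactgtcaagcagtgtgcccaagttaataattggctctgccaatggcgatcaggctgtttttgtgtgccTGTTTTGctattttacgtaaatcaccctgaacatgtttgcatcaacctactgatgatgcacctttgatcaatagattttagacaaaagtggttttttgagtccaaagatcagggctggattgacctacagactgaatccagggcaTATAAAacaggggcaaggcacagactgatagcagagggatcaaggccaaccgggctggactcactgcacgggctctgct
Pck1: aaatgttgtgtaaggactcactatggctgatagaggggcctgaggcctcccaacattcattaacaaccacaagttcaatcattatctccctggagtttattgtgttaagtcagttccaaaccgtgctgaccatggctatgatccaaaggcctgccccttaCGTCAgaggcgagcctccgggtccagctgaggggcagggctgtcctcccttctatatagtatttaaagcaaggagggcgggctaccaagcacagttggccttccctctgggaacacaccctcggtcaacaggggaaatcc
Fbp1: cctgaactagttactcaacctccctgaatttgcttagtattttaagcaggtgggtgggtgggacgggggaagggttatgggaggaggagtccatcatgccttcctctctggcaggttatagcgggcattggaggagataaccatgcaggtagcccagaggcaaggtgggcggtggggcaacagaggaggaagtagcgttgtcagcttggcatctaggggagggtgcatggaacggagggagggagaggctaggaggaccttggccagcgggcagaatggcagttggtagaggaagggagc
Fbp2: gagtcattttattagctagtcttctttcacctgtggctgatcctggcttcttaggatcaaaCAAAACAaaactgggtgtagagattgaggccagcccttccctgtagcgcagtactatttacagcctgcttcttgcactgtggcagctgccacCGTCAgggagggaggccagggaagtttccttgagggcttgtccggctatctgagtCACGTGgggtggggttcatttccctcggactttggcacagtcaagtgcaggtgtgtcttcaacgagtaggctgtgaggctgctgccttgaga

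Of the 10 genes, 8 had a promoter in the RefSeq table, with 11 entries in all since Slc37a4 had 3 and Pcx had 2. The motifs, searched on both strands, were the cAMP response element core TGACG and its full form TGACGTCA, which contains the core, the glucocorticoid receptor hexamer AGAACA, the FOXO motifs GTAAACA and TGTTTTG, the E-box CACGTG and the TATA box TATAAA. They were found in 20.8%, 1.79%, 19.0%, 3.65%, 6.28%, 7.15% and 13.6% of the 32851 promoters of the table, in that order. The G6pc promoter held TGTTTTG starting 174 bases before the start site and TATAAA at 29 bases before it. In Pck1 the core was present as CGTCA, read on the opposite strand, 90 bases before the start. The Fbp2 promoter held CGTCA at 97 bases, CAAAACA at 189 bases and CACGTG at 42 bases before the start, and none of the motifs occurred in the Fbp1 window. The core also occurred in 2 of the 3 entries of Slc37a4 and in Pygl, and the E-box in 1 entry of Pcx and in Ppp1r3c. The remaining Slc37a4 entry held TATAAA at 32 bases before its start. TGACGTCA, AGAACA and GTAAACA occurred in none of the 11 entries. These are matches of letters and show no binding.

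The genes of both fructose bisphosphatases fell in every group relative to control. Fbp2 (chromosome 13, 62836884 to 62858400), which encodes the form known from muscle, had log2 signals of 7.45 and 7.36 in combined, 8.08 and 8.06 in HO1 knockout, 8.80 and 8.83 in HO2 knockdown, and 10.09 and 10.27 in control. The 4 groups were fully separated in that order. Its signal was at 23.1% of control in HO1 knockout (log2 fold change -2.11, SE 0.084, adjusted p = 1.97e-11), at 38.7% in HO2 knockdown (-1.37, adjusted p = 4.37e-09) and at 14.6% in combined (-2.78, adjusted p = 4.17e-13).

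Fbp1 (chromosome 13, 62864753 to 62888298), which encodes the liver form, was at 10.00 and 9.92 in combined, 10.20 and 10.44 in HO1 knockout, 10.47 and 10.48 in HO2 knockdown, and 10.85 and 11.11 in control. All 3 other groups lay below control. HO1 knockout was at 63.1% of control (log2 fold change -0.66, SE 0.085, adjusted p = 4.13e-05), HO2 knockdown at 70.3% (-0.51, adjusted p = 0.000221) and combined at 49.1% (-1.03, adjusted p = 1.11e-07). The fall in combined relative to HO1 knockout (-0.36, adjusted p = 0.00511) did not pass without HO1 knockout replicate 2 (-0.24, adjusted p = 0.0997) or without combined replicate 2 (-0.32, adjusted p = 0.063).

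Both genes lie on the minus strand of chromosome 13 with 6.35 kb between them. The 3 nearest measured genes on each side were examined after the values of Fbp2 were seen. In HO1 knockout against control 0 of these 6 passed the test, at -0.14 for Aopep, the nearest gene on the Fbp1 side, and -0.12 for Mir713, the nearest on the Fbp2 side. Farther out, 6720489N17Rik was at 0.19 and Ptch1 at -0.23. In HO2 knockdown, 6720489N17Rik was at -0.36 (adjusted p = 0.0128) and Ptch1 at 0.34 (adjusted p = 0.00238), and the other 4 did not pass. In combined, where Fbp2 fell most, 6720489N17Rik was at -0.65 (adjusted p = 0.000121) and Platr25 at -0.28 (adjusted p = 0.0257), and the other 4 did not pass. The genes are paralogs, the probe sequences were not used here, and cross-hybridisation between them was not tested.

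**Figure D2:**
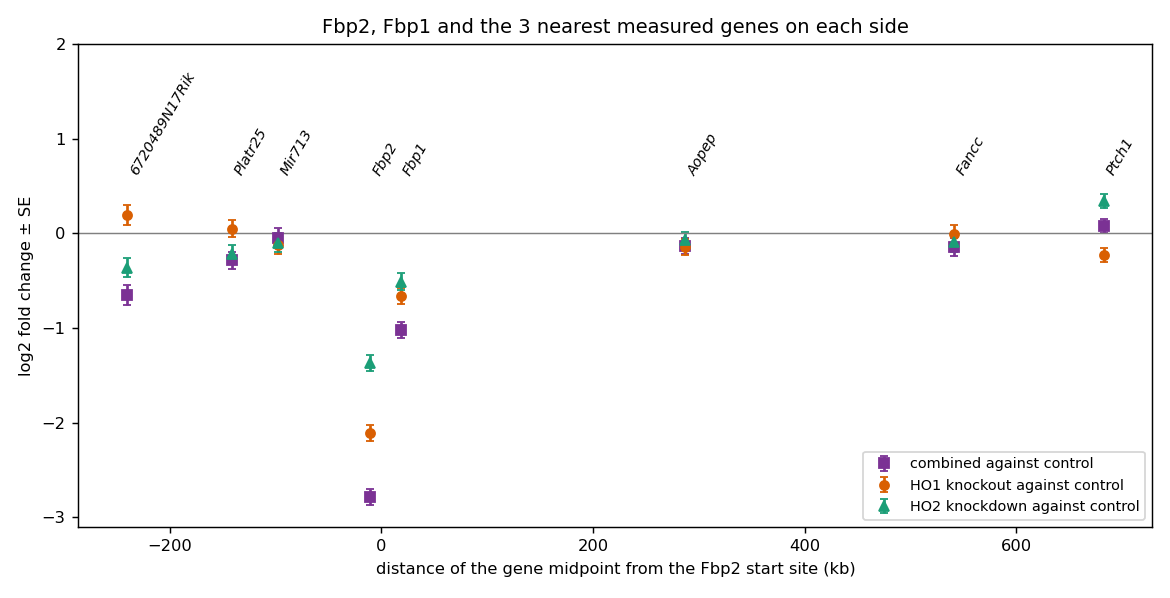
Log2 fold change with its SE (vertical axis) of Fbp2, Fbp1 and the 3 nearest measured genes on each side, by distance of the gene midpoint from the Fbp2 start site in kb (horizontal axis), for combined, HO1 knockout and HO2 knockdown against control. Fbp2 reaches -2.78 and Fbp1 -1.03 in combined, while neighbours stay between -0.65 and 0.34.

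Since Fbp2 is known from muscle, 13 skeletal muscle markers were set beside it. In HO1 knockout 1 rose (Acta1, a skeletal actin gene, by 0.60), 1 fell (Myog, at -0.33) and 11 did not pass. In HO2 knockdown 1 rose, 3 fell and 9 did not pass. In combined against control 1 rose (Acta1, by 1.39), 0 fell and 12 did not pass. The log2 of their summed signal was 12.08 to 12.25 in combined, 11.68 to 11.79 in HO1 knockout and 11.55 to 11.59 in HO2 knockdown, against 11.47 to 11.61 in control. Fbp2 was lower than in control in all of these groups. Acta1 was the brightest of the markers (mean 11.25 in combined and 9.86 in control), so it weighs most in the sum. Of these markers, the myosin genes Myh1 and Myh4, Mylpf and Ppp1r3a were in the dimmest 25% of genes. Over all genes 5.62% rose and 7.2% fell in HO1 knockout against control, 16.5% and 16.7% in HO2 knockdown, and 11.6% and 18.3% in combined.

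Gys2 (chromosome 6, 142422612 to 142473130), the liver glycogen synthase gene, rose with HO2 shRNA in both genotypes. Its log2 signals were 7.42 and 7.33 in combined, 6.17 and 6.45 in HO1 knockout, 7.48 and 7.46 in HO2 knockdown, and 6.23 and 6.27 in control. It was 2.33-fold higher in HO2 knockdown than in control (log2 fold change 1.22, SE 0.11, adjusted p = 3.03e-07) and 2.10-fold higher in combined than in HO1 knockout (1.07, adjusted p = 1.62e-06). The control and HO1 knockout values lie below the bound of the dimmest 25% of genes, 6.77, where background signal can shrink array fold changes. HO1 knockout differed from control by 0.05 (95% interval -0.18 to 0.28).

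The other glycogen genes varied little. Pygl (chromosome 12, 70190815 to 70227683), liver glycogen phosphorylase, was at 9.97 and 9.85 in combined, 10.06 and 10.03 in HO1 knockout, 10.19 and 10.19 in HO2 knockdown, and 10.04 and 10.15 in control. Combined was -0.28 from HO2 knockdown (adjusted p = 0.00362), which did not pass without combined replicate 2 (-0.22, adjusted p = 0.0653). It was -0.19 from control (adjusted p = 0.039), a call that was lost without either HO1 knockout array, either HO2 knockdown array, control replicate 2 or combined replicate 2, with adjusted p from 0.0506 to 0.342. HO2 knockdown and control differed by 0.09 (95% interval -0.05 to 0.23).

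Ppp1r3b (chromosome 8, 35375694 to 35388139), the hepatic glycogen-targeting subunit gene, ran from 7.80 to 7.98 in combined, 7.75 to 7.82 in HO1 knockout and 7.84 to 7.90 in HO2 knockdown, against 7.70 to 7.72 in control. Its difference between HO2 knockdown and control was 0.16 (95% interval -0.04 to 0.36, adjusted p = 0.203), and it passed after quantile normalization once more (0.24, adjusted p = 0.0474). Ppp1r3c (chromosome 19, 36731731 to 36736604), which encodes a further glycogen scaffold, had signals of 6.60 and 6.67 in combined, 6.46 and 6.52 in HO1 knockout, 6.51 and 6.71 in HO2 knockdown, and 6.46 and 6.70 in control. Its mean over the arrays lay in the dimmest 25% of genes, and the interval of its difference between HO2 knockdown and control was -0.20 to 0.27. Of the 4 glycogen genes, Gys2 passed the test in HO2 knockdown against control and the other 3 did not.

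**Figure D3:**
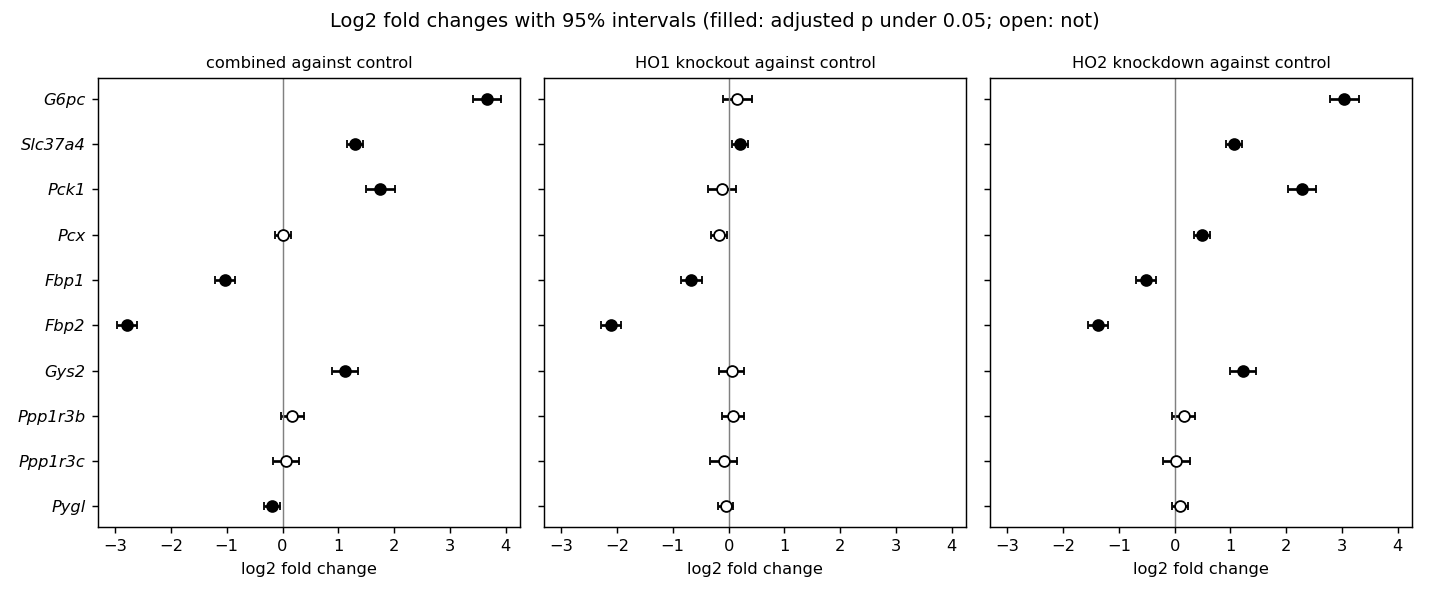
Log2 fold change (horizontal axis) of the 10 genes with 95% intervals in combined, HO1 knockout and HO2 knockdown against control, with filled points for an adjusted p under 0.05. Fbp1 and Fbp2 are left of 0 in all 3 panels, while G6pc, Slc37a4, Pck1 and Gys2 are far right of 0 in the panels with HO2 shRNA.

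The effect of HO2 shRNA was compared between genotypes through the interaction, the log2 change in HO1-/- cells (combined against HO1 knockout) minus that in HO1+/+ cells (HO2 knockdown against control). Of the 10 genes 1 passed, Fbp2, against 12.2% of all genes, or 4.67% in its direction (higher). Its fall was -0.67 in HO1-/- and -1.37 in HO1+/+ cells, a difference of 0.70 (SE 0.12, adjusted p = 0.00126). The fall in HO1-/- cells ran at lower signal, from a mean of 8.07 to 7.40, against 10.18 to 8.81 in HO1+/+ cells. The part of background signal in this difference was not tested. Marker genes shifted in the interaction too, where 4.67% of all genes were higher and 7.57% lower. Of the cell division markers 6 of 7 were higher and 0 lower (median 0.74), and of the hepatocyte markers 0 of 12 were higher and 7 lower (median -0.31). Of the macrophage markers 5 of 14 were higher and 2 lower (median 0.15). The part of these shifts in the differences of the 10 genes was not tested. G6pc rose by 3.50 in HO1-/- cells and 3.04 in HO1+/+ cells, and the difference of 0.46 had a 95% interval of 0.10 to 0.83 and an adjusted p of 0.089. Pck1 rose by 1.87 in HO1-/- cells and 2.28 in HO1+/+ cells (difference -0.41, interval -0.77 to -0.05, adjusted p = 0.126), and this difference passed without control replicate 1 (-0.60, adjusted p = 0.015). For Pygl the difference was -0.23 (adjusted p = 0.115), and it passed without control replicate 2 (-0.29, adjusted p = 0.0418).

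The change of Pcx in HO1-/- cells was 0.19 (adjusted p = 0.0518), and it passed without either control array, without combined replicate 2, and under 4 other settings, with adjusted p from 0.0187 to 0.045. In HO1+/+ cells it was 0.49, with a difference of -0.30 (adjusted p = 0.05004), just short of the threshold. The G6pc difference passed without control replicate 2 (0.57, adjusted p = 0.0259) or without HO1 knockout replicate 1 (0.67, adjusted p = 0.0172), and that of Pcx without control replicate 2 (-0.31, adjusted p = 0.0407) or without combined replicate 1 (-0.38, adjusted p = 0.0411). Slc37a4 changed by 1.08 in HO1-/- and 1.06 in HO1+/+ cells, and the interval of the difference was -0.18 to 0.22. For Gys2 these changes were 1.07 and 1.22, and the interval of the difference was -0.47 to 0.18. Hmox2 itself fell by 2.30 in HO1-/- and by 3.14 in HO1+/+ cells, a smaller log2 change in HO1-/- cells (difference 0.84, adjusted p = 3.86e-05).

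**Figure D4:**
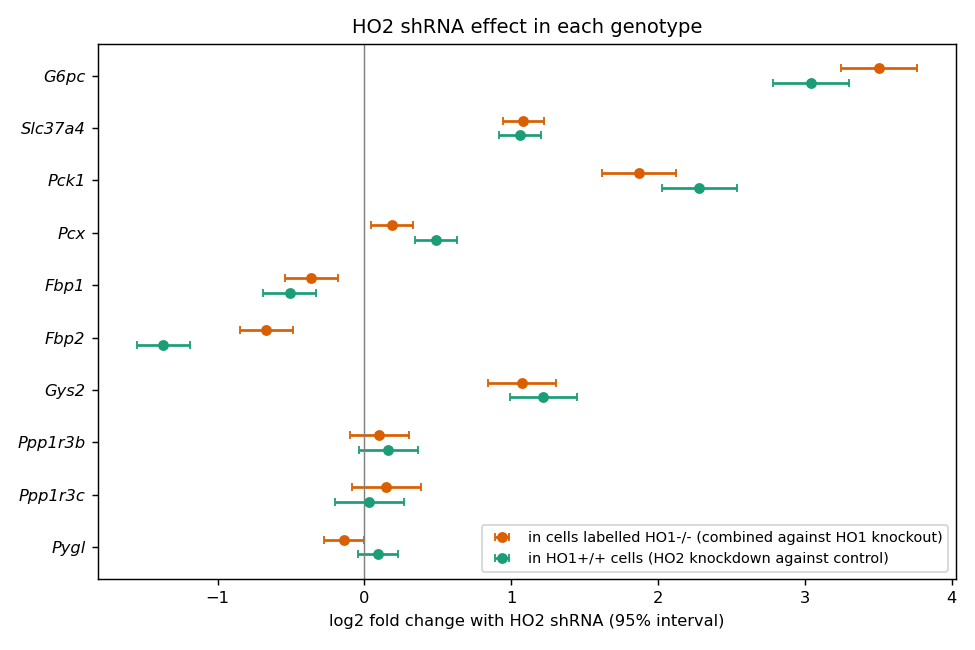
Log2 fold change with HO2 shRNA (horizontal axis) and its 95% interval for each of the 10 genes, in cells labelled HO1-/- (combined against HO1 knockout, upper points) and in HO1+/+ cells (HO2 knockdown against control, lower points). The intervals of Fbp2 (around -0.67 and -1.37) and of Pcx (around 0.19 and 0.49) are apart, and those of the other 8 genes overlap.

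Combined against HO2 knockdown sets the labelled genotypes side by side among cells with HO2 shRNA. Hmox2 itself was 0.94 higher in combined (adjusted p = 2.4e-08), so the level of the target differs between these groups along with the genotype. In it 7 of the 10 genes differed, against 34.0% of all genes. G6pc and Slc37a4 were higher (2 of 10 against 13.0%), and Fbp2, Pck1, Fbp1, Pcx and Pygl were lower (5 of 10 against 21.0%). Fbp2 had the largest value, -1.41 (SE 0.084, adjusted p = 3.9e-09), and Fbp1 was at -0.52 (adjusted p = 0.000271). Macrophage markers were higher in combined in the same comparison (11 of 14 rose, 0 fell, median 2.66), as were cell division markers (7 of 7 rose, median 0.60) and sinusoidal endothelium markers (5 of 8 rose, 0 fell, median 0.36). Of the hepatocyte markers 4 of 12 rose and 3 fell. The part of these shifts in the values of the 10 genes was not tested.

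Other enzymes of the pathway went both ways. Of the 16 measured of 21 further gluconeogenesis and substrate enzymes, 6 rose, 4 fell and 6 did not pass in HO2 knockdown against control (median -0.06). Over all genes 16.5% rose and 16.7% fell in that comparison. Gpd1, which links glycerol phosphate to the pathway, was 1.66 higher (adjusted p = 3e-11) and Gpt, alanine aminotransferase, 0.85 higher. The enzymes shared with glycolysis included falls, of -0.42 for the lactate dehydrogenase gene Ldha and -0.36 for the phosphoglycerate kinase gene Pgk1. In HO1 knockout 1 of 16 rose (Gpd1, 0.60, adjusted p = 7.47e-06) and 0 fell (median 0.02), against 5.62% and 7.2% of all genes. G6pc3, the broadly expressed paralog of G6pc, singled out after its values were seen, was 0.25 higher in HO2 knockdown than in control and -0.39 from control in combined (adjusted p = 0.00658 and 0.000151).

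Of 27 measured of 28 further glycogen genes, 6 rose, 5 fell and 16 did not pass in HO2 knockdown against control (median -0.03). That is near the shares over all genes, 16.5% higher and 16.7% lower. Ugp2, which makes UDP-glucose for glycogen synthesis, was 0.72 higher (adjusted p = 9.15e-08), Phka2, the liver phosphorylase kinase subunit gene, 0.50 higher, and Ppp1cc, a catalytic subunit gene of protein phosphatase 1, 0.41 higher. The phosphoglucomutase gene Pgm1 was at -0.44. In HO1 knockout 0 of 27 rose and 6 fell (median -0.05), among them the branching enzyme gene Gbe1 (-0.44, adjusted p = 3.95e-05) and Phka2 (-0.23). Of all genes 5.62% rose and 7.2% fell there.

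Among 6 measured of 8 genes of the opposing glycolytic steps and of glucose transport, 2 rose, 1 fell and 3 did not pass in HO2 knockdown against control (median 0.13). The shares over all genes were 16.5% higher and 16.7% lower. Slc2a2, the liver glucose transporter gene, was 1.99 higher (adjusted p = 3.79e-09) and Pfkfb2, whose enzyme sets the level of an activator of phosphofructokinase, 0.63 higher. The liver phosphofructokinase gene Pfkl was at -0.64 and the pyruvate kinase gene Pklr at -0.03 (adjusted p = 0.699). In HO1 knockout Pklr fell by 0.23 and Pfkfb2 rose by 0.22 (1 of 6 in each direction, against 7.2% lower and 5.62% higher over all genes).

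A list of hormone receptors, signalling proteins, transcriptional regulators and hormone-induced target genes mostly rose with HO2 shRNA in HO1+/+ cells. Of 23 measured of 25, 17 rose, 1 fell and 5 did not pass in HO2 knockdown against control (median 0.57, against -0.07 over all genes). Of all genes 16.5% rose and 16.7% fell in that comparison. The target genes Tat, an enzyme of tyrosine breakdown, and Igfbp1, a secreted binding protein, both induced by glucocorticoids, were 2.37 and 1.62 higher, the corepressor gene Nr0b2 2.20 and Klf15, a glucocorticoid-induced activator of amino acid use, 1.50. The glucagon receptor gene Gcgr, named after its values were seen, was 1.22 higher (adjusted p = 3.05e-07). In HO1 knockout 5 rose, 3 fell and 15 did not pass (median 0.04), with Tat 0.62 and Igfbp1 0.30 higher. The shares over all genes there were 5.62% higher and 7.2% lower. Hepatocyte markers rose in the same HO2 knockdown arrays (11 of 12, median 1.63). Tat stands on that list as well as on this one.

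**Figure D5:**
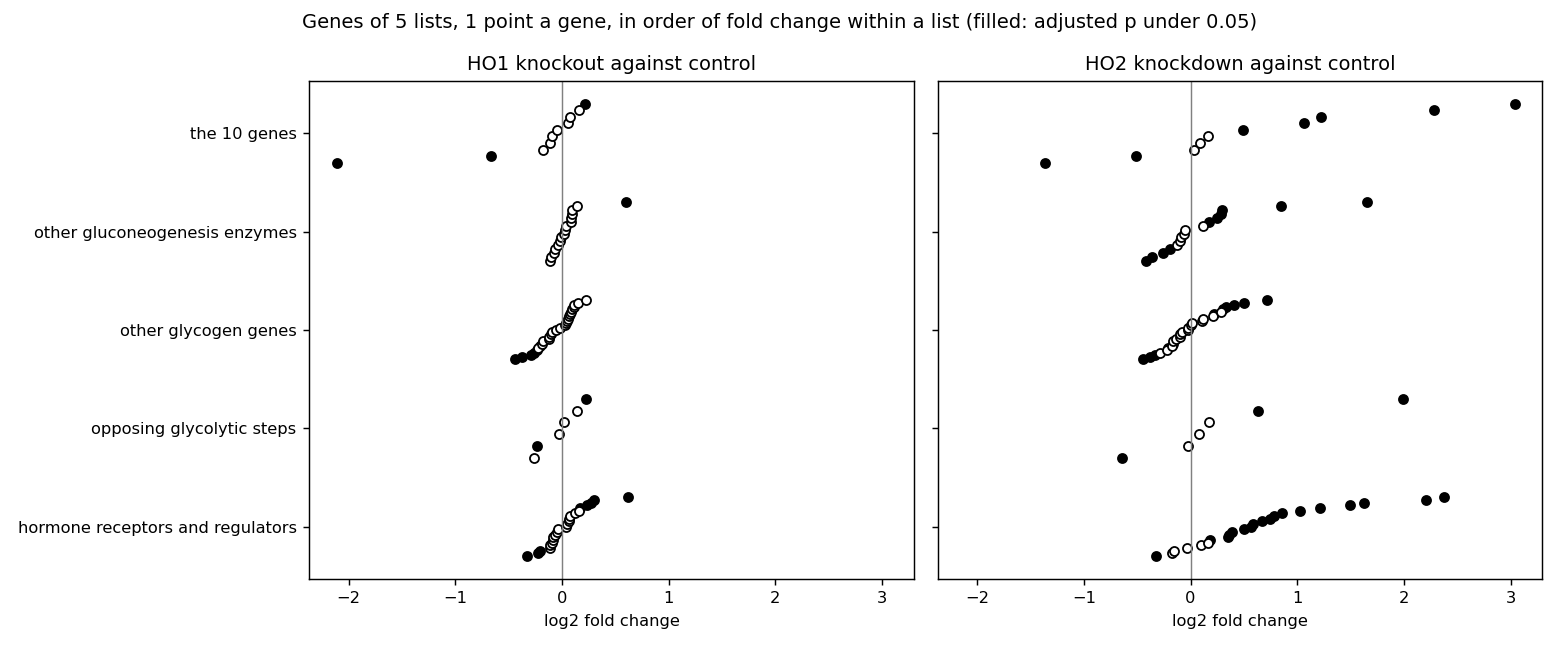
Log2 fold change (horizontal axis) of each gene of the 10 and of 4 pathway lists, in order within a list, in HO1 knockout and HO2 knockdown against control, with filled points for an adjusted p under 0.05. In HO2 knockdown 17 of the 23 genes of the list of hormone receptors and regulators lie right of 0 and passed, while the further gluconeogenesis and glycogen genes lie on both sides.

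Likeness of pattern was measured as Pearson's r over the 8 arrays, among 1277 genes whose log2 values span at least 1. The arrays fall into 4 groups of 2, so r mainly compares 4 group levels and is given as a description. Closest to G6pc were Cyp2j5, Apoa2, Rdh7, Spp2 and Slc2a2, with r from 0.994 to 0.996. Closest to Pck1 were Klf15 (0.995), Agtr1a, Glyctk, Kit and Pde4c. For Gys2 the closest were Zhx3, Tkfc, Cdo1, Pllp and Acot12, with r from 0.994 to 0.997. Fbp2 was most like Cmah (0.991), Ctla2a, Tcim, Il1rap and Lrrc39, none of which is among the 5 closest to the other 4 genes so compared. For Ppp1r3c, whose signals span 0.25, the highest value was 0.65, with Ifit3.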

How the data were processed

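The deposited table holds log2 signals for 34760 probe sets on 8 arrays, made by the authors with RMA. The submitters' processing notes name affy and R 2.15.0. The sources used here name neither chip definition file nor genome build, and labelling started from 300 ng RNA per the labels' protocols. Probe sets with exactly 1 gene symbol in the platform table (21640) were used, and the brightest was kept for each gene, leaving 19937 genes. Of these 19855 matched RefSeq of GRCm38.p6, which gave positions and promoters. With limma (version 3.58.1, R 4.3.3), 4 group means were fitted over all 8 arrays (4 residual degrees of freedom, empirical Bayes with trend), two-sided, with Benjamini-Hochberg adjustment over all genes. SE is the moderated standard error. The fit was also run on simulated data with independent noise and changes only in HO2 knockdown. That setting is simpler than these arrays and holds no differences of preparation or cell mix. Members and lists were chosen with earlier results of these data known. All 10 genes are named, with the smallest p-values of each list (4 from HO2 knockdown, 2 from HO1 knockout). For likeness the 5 highest r were taken for 5 of the 10 genes. Other choices are in the closing section. RMA normalizes quantiles, so a change of total RNA is not visible.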

Additional observations from a re-analysis of the deposited data

Results flagged for a closer look

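The change with HO2 shRNA differed between genotypes by the interaction test for Fbp2, where the change in HO1-/- cells minus that in HO1+/+ cells was 0.70 (limma adjusted p = 0.00126). The targeted gene Hmox2 differed the same way, by 0.84 (adjusted p = 3.86e-05), and Hmox1 by 0.34 (adjusted p = 0.00305). Among further named genes the difference was 0.18 for Ldha and 0.25 for Phka2, and it was negative for Ppp1cc (-0.25), Pfkfb2 (-0.39), Pklr (-0.42), Tat (-0.54), Nr0b2 (-0.59), Gcgr (-0.62) and G6pc3 (-0.66). All of these passed at an adjusted p under 0.05 over all genes.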

How the results depend on the processing

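Values of single genes kept their direction and their side of the threshold in 899 of 974 repeats with another setting, 20 gained a call, 30 lost one and 25 changed sign, all of the last among values that had not passed. In many of these repeats the log2 fold change could not move, so its direction was fixed in advance. These were the stricter threshold, no mean-variance trend, array weights, the replicate block and leaving out dim genes. They also include the mean of a gene's probe sets, since each member has 1, and leaving out an array of a group not compared. With an adjusted p under 0.01 the genes called were 1575 of 19937 for HO1 knockout against control (2557 at 0.05), 4283 for combined against HO2 knockdown (6775 at 0.05) and 1065 for the interaction (2442 at 0.05), which had 1359 with no mean-variance trend. Leaving out 1 array gave 1704 to 2937 genes for HO1 knockout against control (1704 without HO1 knockout replicate 1), 3827 to 8253 for combined against HO2 knockdown (3827 without HO2 knockdown replicate 1) and 1301 to 4744 for the interaction (1301 without HO2 knockdown replicate 1, 4744 without control replicate 2). The members called in the interaction were 1 to 4 over these fits (4 without control replicate 2). They were 2 with arrays centred on their medians, where 2499 of 19937 genes were called, and 2 after quantile normalization once more, where 2167 were. These shares lie near the 12.2% of all genes called in the main fit. Pcx passed beside Fbp2 without the dimmest 25% of genes (adjusted p = 0.0392) and with the mean of a gene's probe sets (0.0498). The cause was not tested. Of the called genes, 49.7% were higher in HO2 knockdown than in control, 62.9% after centring; for combined against HO2 knockdown 38.2%, 24.1% after centring; for the interaction 38.2%, 27.1% after centring and 47.2% after quantile normalization.

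The labels do not say whether replicate numbers pair the arrays. Deviations of same-numbered arrays from their group means had r of -0.26 to 0.12, which does not settle it. With the replicate number as a block, 3 members passed in the interaction, G6pc (adjusted p = 0.0216) and Pcx (0.0493) beside Fbp2, and Slc37a4 in HO1 knockout did not (0.0505). With centred arrays the Slc37a4 differences of HO1 knockout from control (adjusted p = 0.0900) and of combined from HO2 knockdown (0.0733) did not pass. Pcx in combined against HO1 knockout passed with array weights (0.0322), centring (0.0450), quantile normalization once more (0.0187) and without the dimmest 25% of genes (0.0402).

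Values that changed sign over fits without 1 array ran as follows. In HO1 knockout against control they were -0.046 to 0.36 for G6pc, -0.30 to 0.075 for Pck1, -0.087 to 0.19 for Gys2, -0.11 to 0.0058 for Pygl and -0.21 to 0.027 for Ppp1r3c. For Ppp1r3c they were -0.085 to 0.15 in HO2 knockdown and -0.060 to 0.17 in combined against control, where Pcx was -0.062 to 0.090. In combined against HO2 knockdown Ppp1r3b was -0.073 to 0.11 (-0.048 centred, -0.095 after quantile normalization) and Ppp1r3c -0.076 to 0.13 (-0.039 centred, -0.12 after quantile normalization). In the interaction Slc37a4 was -0.050 to 0.091 (-0.022 centred), Ppp1r3b -0.15 to 0.027 and Ppp1r3c -0.0023 to 0.23 (-0.046 after quantile normalization). Each group had 2 arrays. Dim probe sets carry background, which can understate folds of low genes, and its size was not tested.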

Other observations

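Markers of further liver cell types were counted beside the 10 genes. Over all genes 5.62% rose and 7.2% fell in HO1 knockout against control, and 16.5% rose and 16.7% fell in HO2 knockdown. In HO1 knockout against control 2 of 9 neutrophil markers rose and 0 fell, 2 of 8 sinusoidal endothelium markers rose and 0 fell, 0 of 9 stellate cell and fibroblast markers rose and 5 fell, and 0 of 5 cholangiocyte markers passed. In HO2 knockdown against control 0 of 9 neutrophil markers rose and 1 fell, 3 of 8 sinusoidal endothelium markers rose and 0 fell, 3 of 9 stellate cell and fibroblast markers rose and 2 fell, and 1 of 5 cholangiocyte markers rose and 1 fell. Their part in the values of the 10 genes was not tested.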
